A study of Mus musculus with 18 samples.

Results

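The proteins of the mitochondrial ribosome were followed in single mouse 2-cell embryos through the genes whose annotated symbol begins with Mrpl or Mrps and a number, the large and small subunit names. These were 77 of the 19935 genes that a probe set of the array names alone, 48 of the large subunit and 29 of the small subunit. Where several probe sets named a gene alone, the probe set with the highest mean over the 18 embryos stood for it. The annotation of the mouse genome lists 78 protein-coding genes with such symbols, and the remaining gene, Mrpl53, was read only by a probe set that also names Ccdc142 and was not used.

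The 9 Parg(110)-/+ embryos came from 3 Parg(110)-/- males, called PargA, PargB and PargC, with 3 embryos each. The 9 WT embryos came from 3 wild-type males, called WT1, WT2 and WT3, again with 3 embryos each. All females were wild type, all animals were of the 129SVE strain and mating was natural. Parg encodes poly(ADP-ribose) glycohydrolase, the main enzyme that degrades poly(ADP-ribose), and the Parg(110)-/- males lack exons 2 and 3 of both copies, so that their embryos carry 1 deleted copy. What the father's sperm brought and what the embryo's own genotype brought therefore cannot be told apart. RNA of each embryo was amplified and hybridised to its own array, the signal is on the log2 scale, and embryos are named here by father and number, as in PargB-1.

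Mitochondrial ribosomal proteins are encoded in the nucleus, made in the cytoplasm and imported, and in the organelle they assemble with the mitochondrial ribosomal RNAs to translate the few membrane proteins of the respiratory chain that the mitochondrial genome encodes. The early mouse embryo carries mitochondria and much of its messenger RNA over from the oocyte, and at the 2-cell stage it degrades maternal RNA while the embryonic genome is switched on. Genes for these proteins have GC-rich promoters, and NRF1, the ETS-family factor GABP and YY1 are known to bind many promoters of nuclear genes for mitochondria.

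Promoter windows of 300 bases, 250 before and 50 after a start site, were given by RefSeq on GRCm38.p6 for 68 of the 77 genes, in 74 windows with a median GC content of 58.5%, against 52.7% over all 32851 windows and 56.3% over the 21262 windows of protein-coding genes. The letters CCGGAAG of the ETS family, searched on both strands, stood in 33.8% of the members' windows, against 8.86% of all windows and 11.6% of those of protein-coding genes. The NRF1 letters GCGCATGCG stood in 9.46%, against 1.75% of all and 2.35% of protein-coding windows, and the YY1 letters AAGATGGCG in 10.8%, against 1.4% and 1.83%. The TATA letters TATAAA were the exception, with 6.76%, against 13.6% and 12.6%. By subunit, the ETS letters stood in 14 of 47 large (29.8%) and 11 of 27 small subunit windows (40.7%). The NRF1 letters stood in 6 of the large (12.8%) and 1 of the small subunit windows (3.7%), counts too small to set the subunits apart. The ETS and YY1 letters overlapped in 0 of the members' windows, while in 3 windows the NRF1 letters lay on both strands shifted by 1 base. A match of letters describes the window and was not tested as a binding site.

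Windows of 3 members that recur below show these letters in capitals, 5′ to 3′ on the gene's strand. Mrpl52, the bright member with the smallest p between genotypes, had the ETS letters on the reverse strand at 2 places. Mrpl32, of the pair whose signals ran most alike, had the NRF1 letters, first as an overlapping pair on both strands and then on the reverse strand, whereas the window of Mrpl20, the other gene of that pair, held none of the letters searched. Mrps18a, among the members with the widest spread, had the ETS letters and, downstream, the YY1 letters.
Mrpl52 (chr14:54426659-54426958, plus strand): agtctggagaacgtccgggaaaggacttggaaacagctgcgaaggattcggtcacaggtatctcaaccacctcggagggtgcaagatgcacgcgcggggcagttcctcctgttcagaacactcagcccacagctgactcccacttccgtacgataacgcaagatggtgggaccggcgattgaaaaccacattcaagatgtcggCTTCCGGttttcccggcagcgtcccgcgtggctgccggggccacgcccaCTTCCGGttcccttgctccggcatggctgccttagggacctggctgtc
Mrpl32 (chr13:14612988-14613287, minus strand): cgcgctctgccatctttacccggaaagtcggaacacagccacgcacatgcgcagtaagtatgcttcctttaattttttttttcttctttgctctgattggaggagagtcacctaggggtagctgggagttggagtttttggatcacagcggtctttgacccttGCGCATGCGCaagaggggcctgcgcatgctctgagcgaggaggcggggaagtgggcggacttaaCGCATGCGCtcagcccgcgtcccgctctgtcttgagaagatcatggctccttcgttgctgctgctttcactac
Mrps18a (chr17:46110754-46111053, plus strand): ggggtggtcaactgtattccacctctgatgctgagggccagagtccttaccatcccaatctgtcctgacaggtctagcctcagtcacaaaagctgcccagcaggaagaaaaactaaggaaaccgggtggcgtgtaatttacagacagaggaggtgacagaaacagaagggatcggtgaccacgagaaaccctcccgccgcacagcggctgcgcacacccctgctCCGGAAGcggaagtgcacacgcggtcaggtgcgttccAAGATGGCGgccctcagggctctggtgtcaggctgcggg

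The arrays held 28815 probe sets with log2 values between 2.97 and 13.7, array medians between 6.44 and 6.53 in Parg(110)-/+ embryos and between 6.34 and 6.49 in WT embryos, and correlations between any pair of arrays of 0.924 to 0.958. Probe sets at or above the median of all probe set means, 6.47, are called bright and the others dim. The label of the cells was checked on markers: 7 of 8 oocyte and maternal markers were bright, and of the 3 measured 2-cell markers Zfp352 and Tcstv3 averaged 10.5 and 10.7 in Parg(110)-/+ embryos and 10.3 and 10.4 in WT embryos, while Usp17la was dim. Of the markers of other cells, 2 of 9 for cumulus, granulosa and oviduct, 0 of 4 for blood and 3 of 6 for spermatids were bright. In the same order, 8, 4 and 6 of them had a higher mean in Parg(110)-/+ embryos, with median differences of 0.12, 0.11 and 0.12. The dim probe sets as a whole had a median difference of 0.06. Over all probe sets, 67.1% had a higher mean in Parg(110)-/+ embryos. At an unadjusted p under 0.05 (limma) stood 3, 1 and 3 of these markers, against 10.5% of all probe sets. Called were 0 of them, against 0% of all probe sets. The part of these markers in the members' values was not tested. The Parg probe set, which reads the gene and not the deleted exons alone, lay between 9.37 and 10.8 with a median of 10.3 in Parg(110)-/+ embryos and between 9.55 and 10.9 with a median of 10.6 in WT embryos (difference -0.32 ± 0.20 SE, adjusted p = 0.571).

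Most members had a bright probe set. Bright probe sets read 70 of the 77 members (90.9%), 44 of the large and 26 of the small subunit, against 52.0% of all probe sets that name 1 gene. These shares are not on the same footing. For the 8 members with over 1 probe set the brightest was chosen, while the 52.0% involved no such choice. The probe sets not chosen were dim for Mrpl27, Mrpl47 and Mrps5, with means of 6.38, 5.83 and 5.95. For Mrpl23, Mrpl41, Mrpl51, Mrps33 and Mrps36 they were bright. The 7 dim members were Mrpl13, Mrpl3, Mrpl36, Mrpl38, Mrps27, Mrps31 and Mrps35. Array signal depends on each probe set's own probes, so the bright share does not rank transcript levels. Signals are compared between embryos and not between genes.

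Paternal genotype came with no called change in any member. With calls made at an adjusted p under 0.1 (limma), 0 of 77 members and 0 of 28815 probe sets (0%) were called, and the smallest adjusted p over all probe sets was 0.354. Signals were higher in Parg(110)-/+ embryos for 33 members (42.9%) and lower for 44, against 67.1% of all and 58.6% of bright probe sets higher. The members' median difference was -0.04, while the median was 0.05 over all probe sets and 0.04 over the bright ones. With each array shifted to the same median, 27 members (35.1%) were higher and 50 lower, against 48% of all and 45% of bright probe sets higher. The members' median was then -0.10, against -0.005 over all probe sets and -0.02 over the bright ones. Before adjustment, 2 members (2.6%) had p under 0.05, against 10.5% of all probe sets, 1 member in each direction. Under equal array medians and under repeated quantile normalization it was 3 members each, against 6.22% and 6.32% of all probe sets. The 95% interval of the difference lay within 1 log2 unit on either side of 0 for 52 members (67.5%), against 89.3% of all probe sets. For the other 25 members it passed 1 log2 unit on at least 1 side, and on both sides for Mrps18c, Mrpl41, Mrps33 and Mrps21.

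**Figure D1:**
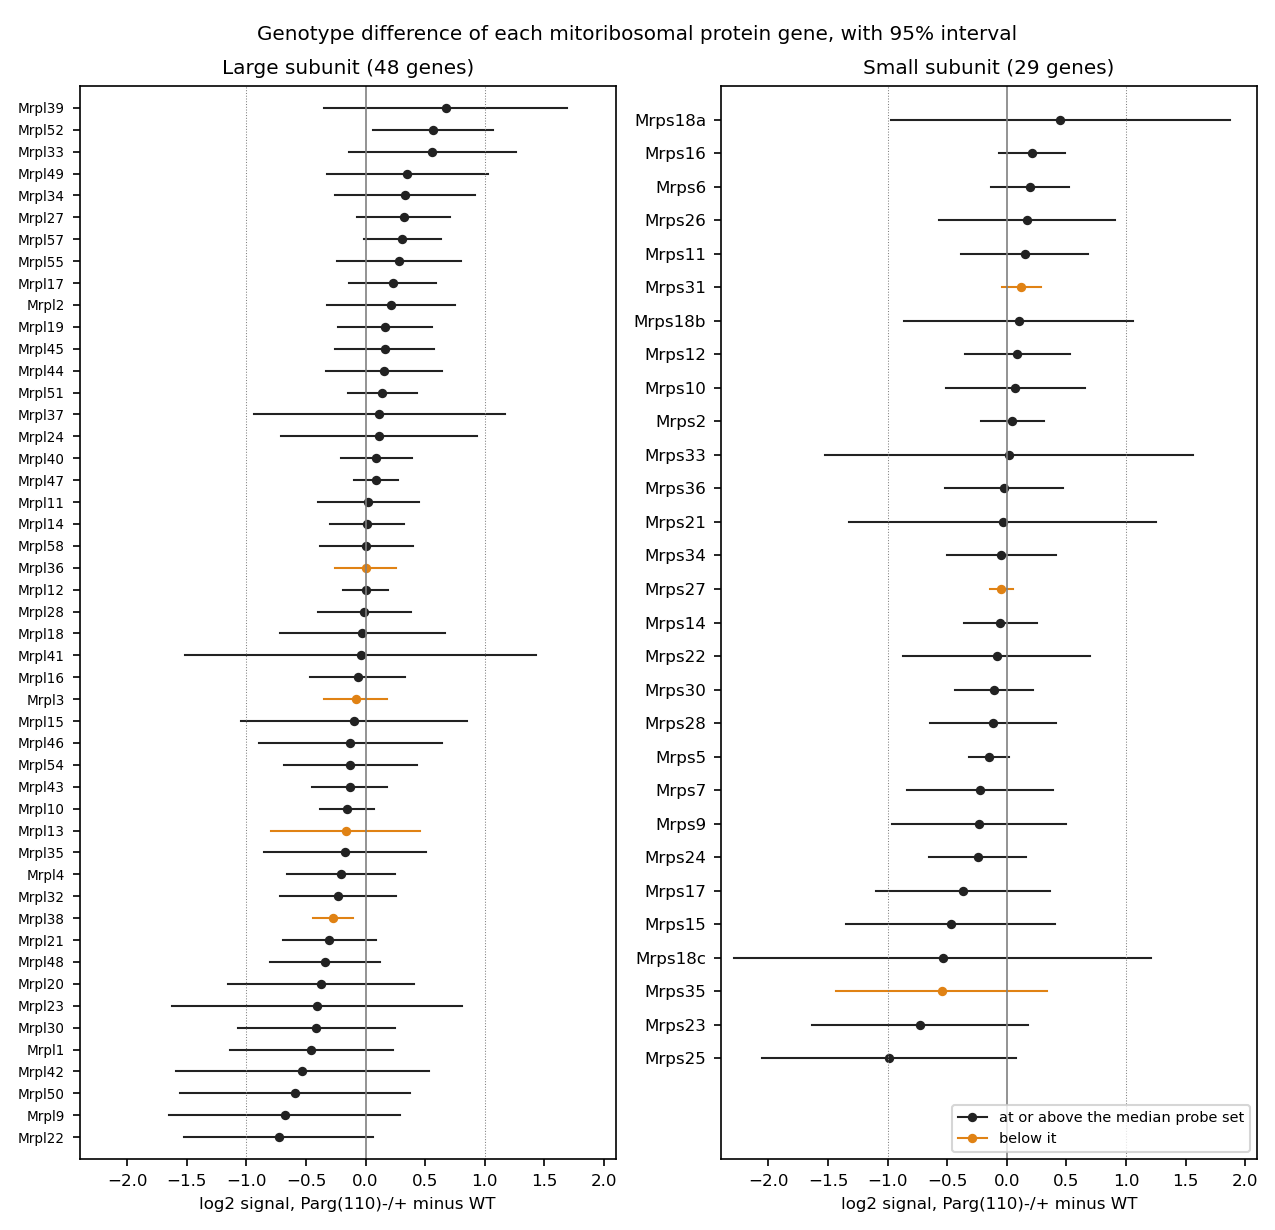
Difference in log2 signal between 9 Parg(110)-/+ and 9 WT embryos for each of the 48 large subunit (left) and 29 small subunit genes (right), points, with the 95% interval of the limma fit, bars; orange marks the 7 dim members and dotted lines mark a difference of 1. The differences run from -0.99 for Mrps25 to 0.67, and only the intervals of Mrpl52 and Mrpl38 leave out 0.

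Mrpl38 and Mrpl52, both of the large subunit, were the 2 members with p under 0.05 on the chosen probe sets. Mrpl38, a protein of the mitochondrial large subunit with no bacterial counterpart, had signals of 5.94, 6.22 and 6.38 as lowest, median and highest in Parg(110)-/+ embryos and of 6.23, 6.47 and 6.78 in WT embryos. All 9 Parg(110)-/+ embryos lay below the WT mean and 5 lay below every WT embryo, so that the groups still overlapped. The difference was -0.28 ± 0.08 (SE, adjusted p = 0.362), on a dim probe set.

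Mrpl52 had signals of 7.26, 8.02 and 9.13 in Parg(110)-/+ embryos and of 7.11, 7.58 and 7.94 in WT embryos. The difference was 0.57 ± 0.24 (adjusted p = 0.447), and 5 of 9 Parg(110)-/+ embryos lay above every WT embryo. The spread was unequal too, with an SD of 0.70 among Parg(110)-/+ and 0.28 among WT embryos. The highest values were 9.04 in PargB-1, 9.13 in PargB-3 and 8.52 in PargA-3, whereas PargC-2 and PargC-3 read 7.26 and 7.28, below the WT mean. Without the 3 embryos of PargB the difference was 0.31, and without those of PargC it was 0.82.

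The other members named for a higher mean passed no threshold. Mrpl57 lay at 7.28, 7.62 and 8.22 in Parg(110)-/+ embryos and at 6.78, 7.42 and 7.98 in WT embryos, a difference of 0.31 ± 0.15 (adjusted p = 0.492) with 8 of 9 Parg(110)-/+ embryos above the WT mean. Mrpl33, a homologue of the bacterial L33 protein, lay at 6.49, 8.36 and 9.42 against 7.04, 7.39 and 9.17 in WT embryos (0.56 ± 0.33, adjusted p = 0.545), also with 8 of 9 above the WT mean. Mrpl27, whose bacterial homologue lies next to the peptidyl transferase centre, differed by 0.32 ± 0.19, Mrps16, a homologue of bacterial S16, by 0.22 ± 0.13, and the dim Mrps31 by 0.12 ± 0.08, with adjusted p of 0.537, 0.555 and 0.561. These differences leaned on single fathers or on the scaling: Mrpl57 was at 0.19 and Mrps16 at 0.14 without PargB, and Mrpl33 at 0.37 without PargA and 0.31 without WT2. Mrps16 was also at 0.14 without PargA-2, and Mrpl27 at 0.21 without WT1. Mrps31 was at 0.07 under both other scalings and without PargA, and at 0.20 without PargC.

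Among the members with a lower mean, the small subunit protein Mrps25 had the largest difference of all 77 on the chosen probe sets. Its 95% interval, -2.05 to 0.08, reached past 0. Its signals were 5.69, 6.15 and 8.71 in Parg(110)-/+ embryos and 6.46, 7.67 and 8.98 in WT embryos (-0.99 ± 0.51, adjusted p = 0.498). Among Parg(110)-/+ embryos 6 lay below every WT embryo, and the other 3 lay between 8.07 and 8.71, while the WT embryos also held values in between, such as 7.43 and 7.67. Mrpl22, which in bacteria helps line the exit tunnel, lay at 6.02, 6.96 and 8.15 against 6.22, 7.97 and 8.73 in WT embryos (-0.73 ± 0.38, adjusted p = 0.5). Without the embryos of PargB the Mrpl22 difference was -0.42 and without those of PargC it was -1.10.

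Mrps5, a homologue of bacterial S5, whose role is in decoding accuracy, had the least spread of these, with 6.35, 6.45 and 6.65 in Parg(110)-/+ embryos and 6.31, 6.61 and 6.93 in WT embryos. Its difference was -0.15 ± 0.08 (adjusted p = 0.512), with 8 of 9 Parg(110)-/+ embryos below the WT mean. Mrps23, of the small subunit, differed by -0.73 ± 0.43 (adjusted p = 0.544), but by -0.18 without the embryos of PargC and by -1.14 without those of PargB. Mrpl21, of the large subunit, differed by -0.31 ± 0.19 (adjusted p = 0.552), by -0.17 without PargB, -0.48 without PargC and -0.20 without WT1. None of these differences was called by the adjusted test, and a p that misses the threshold does not show that the genotypes were alike.

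**Figure D2:**
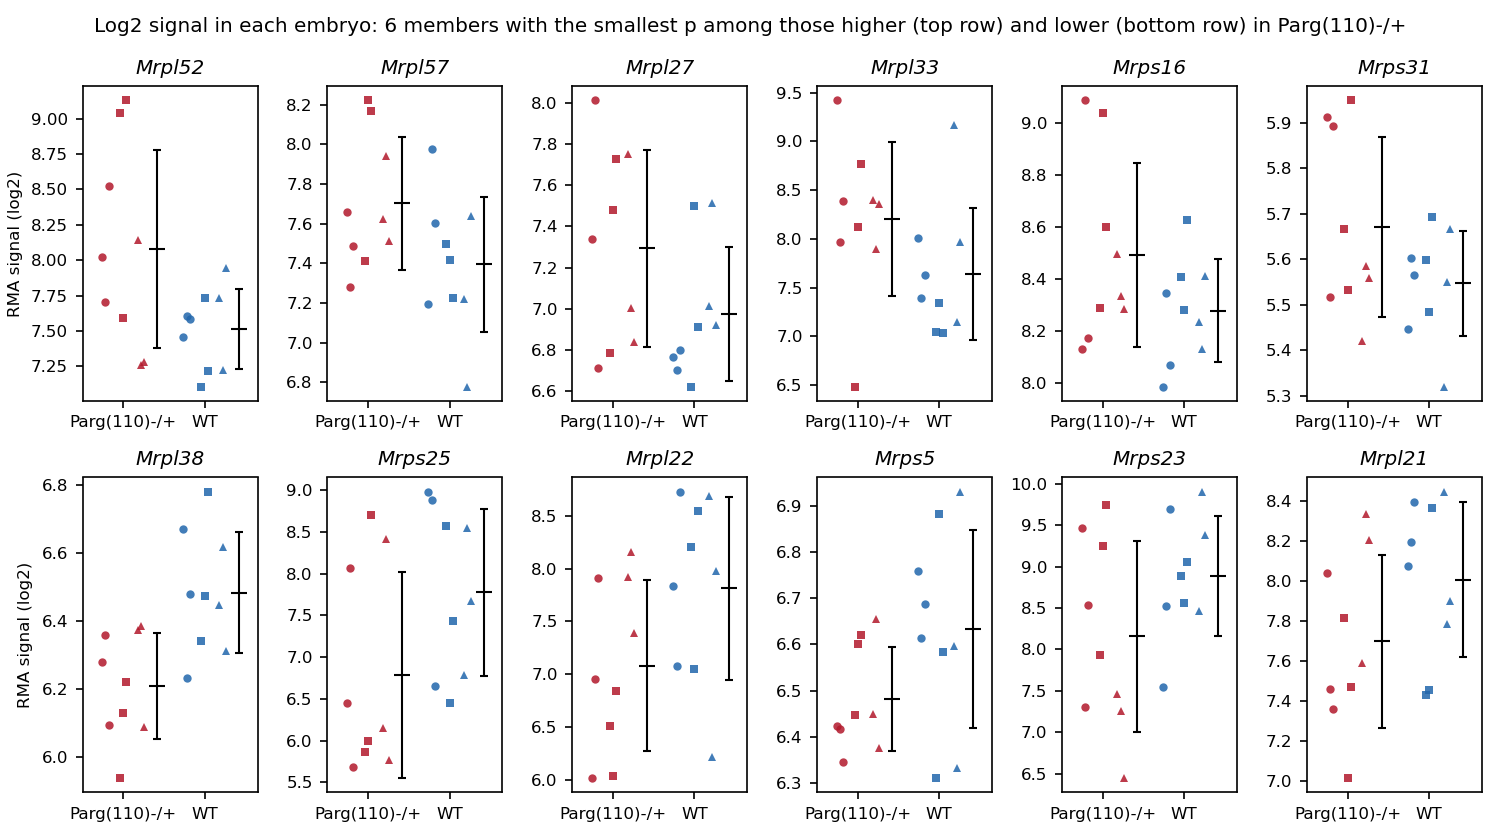
RMA signal (log2) of 12 members in each embryo, Parg(110)-/+ in red on the left and WT in blue on the right of each panel, with a marker shape and place for each father (circle, square and triangle for PargA, PargB and PargC, and for WT1, WT2 and WT3) and black bars for the mean ± SD (n = 9 each). All groups overlap; the highest Mrpl52 values, 9.04 and 9.13, are squares of PargB.

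Neither subunit stood apart between genotypes. The median difference was -0.02 over the large subunit, with 22 members higher and 26 lower in Parg(110)-/+ embryos, and -0.05 over the small subunit, with 11 higher and 18 lower. Symbols do not always give the place of a protein: structures put Mrps30 and Mrps18a in the large subunit, and Mrps36 has since been assigned to the 2-oxoglutarate dehydrogenase complex. With Mrps30 and Mrps18a counted in the large subunit and Mrps36 left out, the medians were again -0.02 and -0.05.

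For each embryo the deviation of every member from its mean over the 18 embryos was averaged. The average was -0.03 ± 0.21 in Parg(110)-/+ and 0.03 ± 0.20 in WT embryos (SD, n = 9 each). For the large subunit it was -0.02 ± 0.15 in Parg(110)-/+ and 0.02 ± 0.26 in WT embryos, and for the small subunit -0.06 ± 0.32 and 0.06 ± 0.21 in the same order. These averages overlapped between the genotypes, and their means differed by less than 1 SD of either group.

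Both ends of the range of averages over all members held embryos of each genotype. The lowest average was in PargB-1, at -0.37, where 20 of 77 members lay above their mean, and the next was -0.30 in WT2-2 with 23 members above it. The highest was in WT3-1, at 0.40 with 53 members above their mean, followed by PargA-1 at 0.28 with 50. PargB-1 also had the most probe sets called against the WT embryos over the whole array, 625, or 2.17%, while in the other 17 embryos 138 to 330 were called. The average deviation of the 8 oocyte and maternal markers was highest in WT2-1 (0.61) and PargB-1 (0.37), where the members averaged -0.17 and -0.37, and it was -0.16 in both WT3-1 and PargB-3, where the members were high. It was -0.02 in WT2-2, where the members were low, and its part in the members' values was not tested.

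The subunits usually deviated together, with a Pearson correlation of 0.58 and a Spearman correlation of 0.573 between their averages over the 18 embryos, given as a description because both come from the same arrays. The Pearson correlation was 0.957 among the 9 Parg(110)-/+ embryos and 0.37 among the 9 WT embryos. Without WT3-1 and WT2-1, the embryos farthest from the median on the large subunit axis, it was 0.773 over 16 embryos. Between the averages of all bright probe sets and of the members it was 0.497, and 0.301 without PargB-1 and WT3-2. How much of the joint movement was array-wide was not tested. In WT2-1 the subunits parted, with -0.35 for the large and 0.13 for the small subunit, and Mrpl41 alone read 5.09 below the other WT embryos there. Large and small subunit averages also had opposite signs in WT1-2 (-0.06 and 0.27) and WT3-2 (-0.17 and 0.07). The same held for PargB-2 (-0.03 and 0.02), PargC-1 (-0.01 and 0.07) and PargC-2 (0.01 and -0.06). In PargB-1 both were low, -0.24 for the large and -0.59 for the small subunit.

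**Figure D3:**
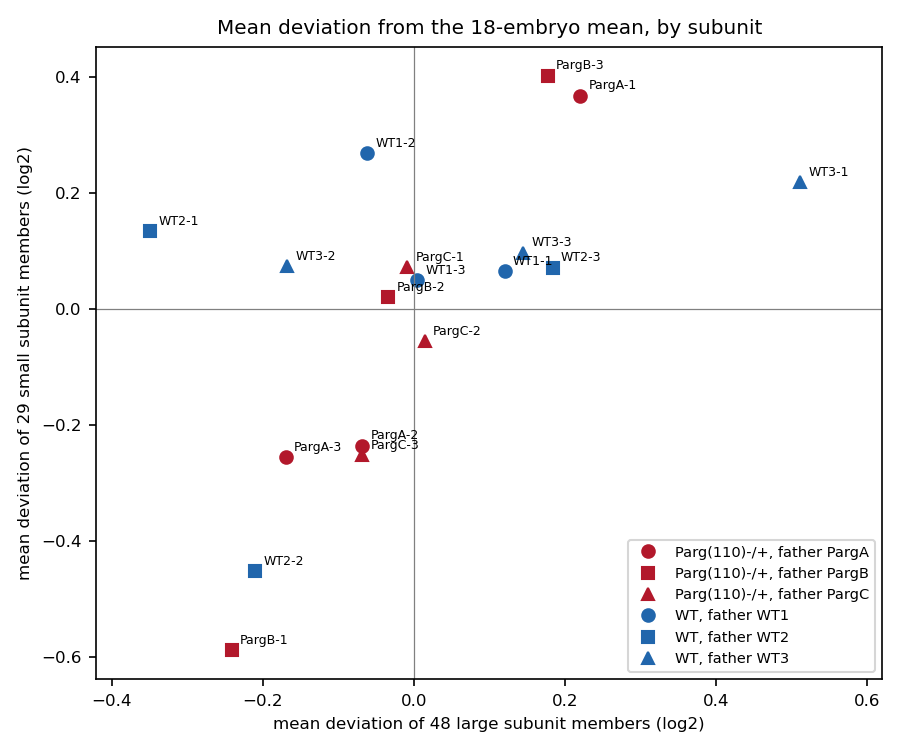
Mean deviation (log2) of the 48 large subunit members, horizontal, and of the 29 small subunit members, vertical, in each of 9 Parg(110)-/+ (red) and 9 WT embryos (blue), with a marker shape for each father. Genotypes intermingle, PargB-1 (-0.24 and -0.59) and WT2-2 (-0.21 and -0.45) lie at the lower left and WT3-1 (0.51 and 0.22) at the right.

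Member by member, the common movement was weak. After removal of the genotype means, the 2415 pairs of bright members had a median correlation of 0.0768 over the 18 embryos and 5.09% of them exceeded 0.5, against 0.0108 and 3.2% for all pairs of bright probe sets with 1 gene. Pairs within the large subunit, within the small subunit and between them had medians of 0.0739, 0.0863 and 0.0761. The pair most alike, chosen after its values were seen, was Mrpl20 and Mrpl32 of the large subunit (r = 0.843). Mrpl20 and Mrpl32 read 9.06 and 7.45 in PargB-3 but 6.32 and 6.17 in PargA-3, and 9.14 and 7.79 in WT2-3 but 6.51 and 6.03 in WT2-1. The lowest value among the same pairs was that of Mrpl39 with Mrpl45 (r = -0.735).

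Spread between embryos was wide for these genes. The median SD over the 18 embryos was 0.55 log2 units, against 0.20 over all probe sets and 0.34 over bright probe sets with 1 gene. Of the related lists described below, 2 had a larger median SD. It was 0.61 for mitochondrial transcription and RNA handling and 0.71 for the 4 mitochondrial ribosomal proteins with other symbols. Translation factors had 0.47, factors acting on nuclear genes for mitochondria 0.37, assembly factors 0.34 and aminoacyl-tRNA synthetases 0.23. In each range of mean signal the members had a larger median SD than all probe sets with 1 gene, for example 0.505 against 0.203 between means of 6.47 and 7.5, 0.76 against 0.57 between 8.5 and 9.5, and 0.57 against 0.35 above 9.5. In the range between 7.5 and 8.5, which held 27 members, the values were closest, 0.57 against 0.49. How much of it arose in the amplification of single-embryo RNA was not tested.

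The spread was similar in both genotypes. The SD among Parg(110)-/+ embryos divided by that among WT embryos had a median of 1.05 over the members, 1.06 over the large and 0.98 over the small subunit, against 1.02 over all probe sets, and it exceeded 1 for 39 of 77 members (50.6%), against 51.5% of all probe sets. It was highest for Mrpl48 (3.04) and Mrps36 (3.01), both described below for single Parg(110)-/+ embryos, and lowest for Mrpl51 (0.305) and Mrpl13 (0.319), which spread more among WT embryos.

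**Figure D4:**
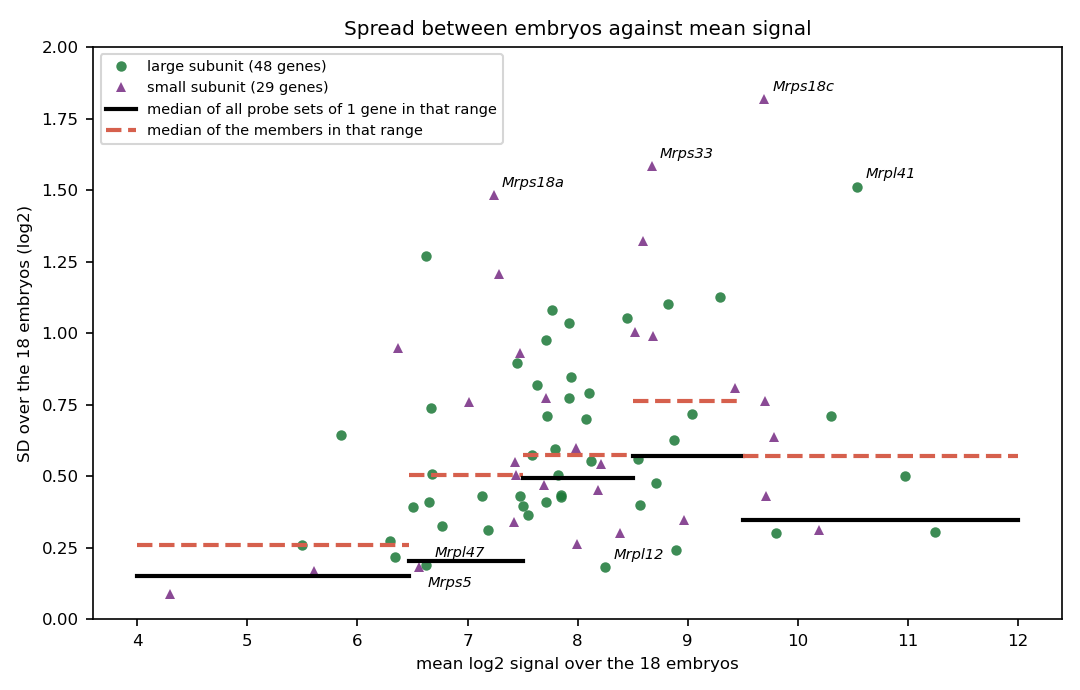
SD over the 18 embryos (log2) against the mean log2 signal, for large subunit (green circles) and small subunit genes (purple triangles), with the median SD of the members (dashed red) and of all probe sets with 1 gene (black) in 5 ranges of mean signal. Mrps18c (1.82), Mrps33 (1.58), Mrpl41 (1.51) and Mrps18a (1.48) spread most, and Mrpl12, Mrps5 and Mrpl47 (0.18, 0.18 and 0.19) least among bright members.

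Mrps18c and Mrps18a belong, with Mrps18b, to a family of 3 proteins related to bacterial S18. Mrps18c read 5.78, 9.82 and 11.3 as lowest, median and highest in Parg(110)-/+ embryos and 5.25, 10.4 and 11.5 in WT embryos. It was low in 3 embryos, PargB-1 (5.78), PargC-1 (7.05) and WT2-2 (5.25), and at 9.43 or above in the other 15. Mrps18a was low in more embryos: its values were 5.87, 7.43 and 10.04 in Parg(110)-/+ embryos and 5.42, 5.90 and 9.42 in WT embryos. Of the WT embryos, 5 lay between 5.42 and 5.90, and the other 4 lay at 7.84 or above.

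Mrps33, a small subunit protein, ranged from 6.44 to 10.8 in Parg(110)-/+ embryos and from 7.08 to 10.8 in WT embryos. Its values changed between embryos of the same father, as with 10.8 in PargB-3 and 6.498 in PargB-1. Mrpl41, a large subunit protein, ranged from 8.16 to 11.8 in Parg(110)-/+ and from 6.04 to 11.5 in WT embryos, and it was below 10 in PargA-2 (8.72), PargA-3 (8.16), PargB-3 (9.91) and WT2-1 (6.04). This probe set lies among those of another chromosome, and on the Mrpl41 probe set of the gene's own place the SD was 0.34 instead of 1.51, with 7.57 in WT2-1 and 7.92 to 8.43 in the other WT embryos. At the other end stood Mrpl12, the stalk protein that binds translation factors and also the mitochondrial RNA polymerase, with 7.76 to 8.47 in Parg(110)-/+ and 7.99 to 8.46 in WT embryos. The decoding-centre protein Mrps12 (7.75 to 8.90 in Parg(110)-/+ and 7.51 to 8.88 in WT embryos) and Mrps30 (6.86 to 7.79 and 6.91 to 8.00 in the same order) were intermediate.

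Each set against the 9 WT embryos, the 9 Parg(110)-/+ embryos gave 6 calls at an adjusted p under 0.1 in 693 tests of members (0.866%), against 0.865% over all probe sets. The fit gives the single embryo the variance of the WT group. Mrpl52 was called in PargB-1 (1.53 ± 0.28, adjusted p = 0.0293) and in PargB-3 (1.62 ± 0.28, adjusted p = 0.0435). Mrpl48 was called lower in PargA-3 (-1.26 ± 0.22, adjusted p = 0.0488) and in PargC-2 (-1.23 ± 0.22, adjusted p = 0.0537), with signals of 9.89 and 9.92, against 10.8 to 11.5 in WT embryos. The only Mrpl48 probe set lies among those of chromosome 4 and not of the gene's own chromosome 7, so these calls may not read the gene itself. Mrps36 was called higher in PargA-2, at 9.20 against 7.16 to 7.91 in WT embryos (1.74 ± 0.23, adjusted p = 0.0109), and Mrpl19 higher in PargA-3, at 7.92 against 6.22 to 6.97 (1.35 ± 0.24, adjusted p = 0.0612).

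The same comparison within the WT group, each embryo against the other 8, gave 10 calls in 693 tests (1.44%), in 10 genes, against 0.731% over all probe sets. These calls included Mrps18c by -5.30 ± 0.68 in WT2-2, Mrpl41 by -5.09 ± 0.31 in WT2-1, Mrpl30 by 2.69 ± 0.24 in WT3-2 and Mrps22 by -2.59 ± 0.35 in WT2-2, with adjusted p of 0.0145, 9.09e-05, 0.00122 and 0.0169. Mrpl54 and Mrpl58, the peptidyl-tRNA hydrolase of the large subunit, were called higher in WT1-1 (1.99 ± 0.27 and 1.19 ± 0.19), Mrps10 in WT2-3 (1.66 ± 0.24) and Mrpl36 in WT3-1 (0.90 ± 0.15). The calls of both genotypes are not on the same footing, since a WT embryo was left out of its own comparison while the Parg(110)-/+ embryos were set against all 9 WT embryos, deviating ones included. Mrps18c in PargB-1, for example, was at 5.78 against a WT mean of 9.96 and was not called.

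By father, no member was called. Against the 9 WT embryos, 0%, 0.0139% and 0.0104% of all probe sets were called in the families of PargA, PargB and PargC. The members' median differences in these families were -0.02, -0.06 and -0.03. Mrpl52 came first in the PargB family (1.08 ± 0.29, adjusted p = 0.231), and Mrps23 in the PargC family (-1.83 ± 0.50, adjusted p = 0.429). Mrps23 averaged 8.44 in the PargA, 8.98 in the PargB and 7.06 in the PargC family, and 8.59, 8.83 and 9.25 in the families of WT1, WT2 and WT3.

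A test among the 3 fathers of a genotype called 0.0104% of all probe sets for the Parg(110)-/- and 0.00347% for the WT fathers, and 0 members in each. Before adjustment 4 members (5.19%) passed 0.05 in each, against 5.34% of all probe sets among Parg(110)-/- and 4.39% among WT fathers. By p, Mrps26 came first among the Parg(110)-/- fathers, with means of 8.97, 9.63 and 10.7 for PargA, PargB and PargC (adjusted p = 0.819). Mrpl44, a large subunit protein with a fold like ribonuclease III, came first by p among the WT fathers, with 7.90, 7.03 and 8.31 for WT1, WT2 and WT3 (adjusted p = 0.875). Mrpl23, whose bacterial homologue sits at the exit of the tunnel, came next with 6.00, 6.03 and 8.44, and there 2 embryos, WT3-1 (10.5) and WT3-3 (8.96), made the difference.

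For 8 members a second probe set named the gene alone, and in 6 members the chosen probe set lay, in the order of identifiers, among probe sets of genes of another chromosome than the gene's own. Those 6 were Mrpl23, Mrpl27, Mrpl41, Mrpl48, Mrpl51 and Mrps33. Pseudogenes named Mrpl23-ps1, Mrpl27-ps and Mrpl48-ps are annotated on the chromosomes of those neighbours, 2, 18 and 4, whereas the genes lie on 7, 11 and 7, and RNA of such copies cannot be told apart from the gene by a probe set that matches both. The second probe set of Mrps36 also lay apart, on chromosome 7 by its neighbours, where Mrps36-ps2 and Mrps36-ps3 are annotated, while the gene lies on 13. The second probe set followed the first closely for Mrpl23 (r = 0.998 over 18 embryos), Mrps36 (0.981) and Mrps33 (0.964), less for Mrps5 (0.824) and Mrpl41 (0.817), and not for Mrpl51 (0.277) and Mrpl47 (-0.093).

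Mrpl27 was the member whose genotype difference depended most on the probe set. Its second probe set, placed among genes of its own chromosome, read 5.77, 6.63 and 8.47 in Parg(110)-/+ embryos and 5.31, 5.76 and 6.20 in WT embryos. There 6 of 9 Parg(110)-/+ embryos lay above every WT embryo, with 8.38, 8.25 and 8.47 in PargA-2, PargB-2 and PargB-3. The difference was 1.13 ± 0.37 (limma, unadjusted p = 0.00674, adjusted p = 0.362), against 0.32 ± 0.19 for the brighter probe set. On this second probe set Mrpl27 would count among the members with an unadjusted p under 0.05. Its difference there was larger in size than that of Mrps25. With the probe sets of the gene's own place used throughout, for 76 members, 34 were higher and 42 lower, with a median of -0.03. Mrpl48, which had no such probe set, was left out.

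**Figure D5:**
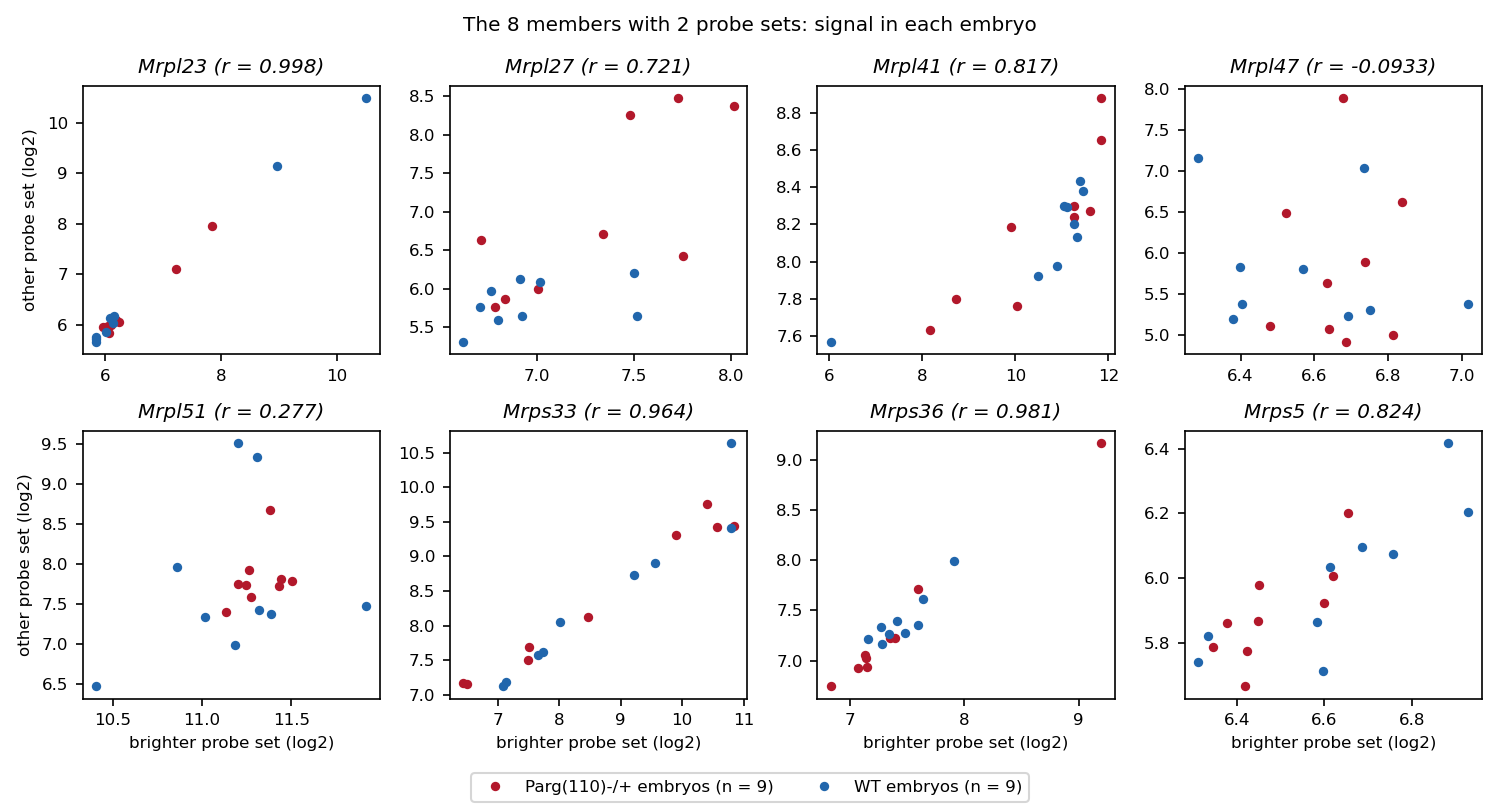
Signal (log2) of the brighter probe set, horizontal, and of the other probe set, vertical, in each Parg(110)-/+ (red) and WT embryo (blue) for the 8 members with 2 probe sets, with the Pearson correlation over 18 embryos in each title. Mrpl23, Mrps36 and Mrps33 lie near a line, Mrpl47 and Mrpl51 do not, and for Mrpl27 6 red points lie above all blue points on the vertical axis.

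Genes that act with the mitochondrial ribosome had no called member either, again against 0% of all probe sets. Of 11 mitochondrial translation factors 6 were higher and 5 lower in Parg(110)-/+ embryos, and of 24 assembly factors 11 and 13. Of 15 genes of mitochondrial transcription and RNA handling it was 6 and 9, and of 19 aminoacyl-tRNA synthetases and related enzymes 14 and 5. Over all probe sets 67.1% were higher, and 48% with equal array medians. The 4 measured ribosomal proteins with other symbols, Dap3, Ptcd3 and Chchd1 of the small and Gadd45gip1 of the large subunit, differed by 0.22 ± 0.43, 0.04 ± 0.29, 0.34 ± 0.36 and -0.08 ± 0.12. Gatb, a subunit of the enzyme that completes glutaminyl-tRNA in mitochondria, averaged 6.26 ± 0.20 in Parg(110)-/+ and 5.97 ± 0.11 in WT embryos (SD; difference 0.29 ± 0.08 SE, adjusted p = 0.362), on a dim probe set. Qrsl1, a subunit of the same enzyme, differed by 0.20 ± 0.07 (adjusted p = 0.398), and the pseudouridine synthase Trub2 by 0.69 ± 0.29 (adjusted p = 0.441).

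Of the 10 factors that act on nuclear genes for mitochondria, 6 were higher and 4 lower, against 67.1% higher over all probe sets. Gabpa, the ETS-family factor whose letters are frequent in the members' promoters, averaged 11.7 ± 0.15 in Parg(110)-/+ and 11.8 ± 0.15 in WT embryos, Nrf1 8.46 ± 0.63 and 8.62 ± 0.29, and Yy1 10.8 ± 0.3 and 10.6 ± 0.3 (SD, n = 9, in the same order of genotypes). The smallest p among them was that of Esrra, a nuclear receptor of mitochondrial genes (0.20 ± 0.07, adjusted p = 0.375).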

How the data were processed

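RNA of 18 single 2-cell embryos was amplified with a whole-transcript kit and hybridised to Affymetrix Mouse Gene 1.0 ST arrays, 1 array per embryo. The authors deposited log2 values after RMA background correction, quantile normalization and summarisation in Partek, whose version is not given in the sources used here. After this normalization the array medians still ran from 6.34 to 6.53, so other scalings were run as well. RMA compresses low signals, and arrays carry no read depth, so that their number limits the precision.

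Genes were taken from the platform annotation, in which 21780 of the 28815 probe sets name 1 gene, 1605 name several and 5430 are not listed. All probe sets were fitted with limma 3.58.1 in R 4.3.3 (lmFit and eBayes, two-sided, Benjamini-Hochberg over all 28815 probe sets, calls at an adjusted p under 0.1 as the methods set it), for genotype, each Parg(110)-/- father against the WT embryos, each embryo against the WT embryos, and fathers within a genotype (F test). Embryos of a father are separate samples that share him. The p-values set a difference against its SE, which rests on the spread between these embryos. The fits were tested on simulated data with the arrays' own means and SDs. Promoter windows came from RefSeq on GRCm38.p6. Replicate numbers did not pair the embryos (mean correlation of same-numbered embryos across genotypes 0.0027).

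Alternatives were other array scalings, bright probe sets only, the mean of a gene's probe sets, each embryo or father left out, father or embryo number as a block, means per father, the methods' one-way test and, chosen after seeing the data, probe sets of the gene's own place. The members and lists were chosen with earlier results of these data known. Named were the 6 members with the smallest p in each direction, the 4 with the highest and 3 with the lowest SD among bright members, the 12 with the smallest p among those called in single embryos, the first 2 of each test among fathers, and Mrpl12, Mrps12, Mrps30, Mrps18a and Mrps36 for their role. Protein sequences were not used here.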

Additional observations from a re-analysis of the deposited data

Results flagged for a closer look

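Among the 2 genotype groups of 9 embryos for each of 32 named members and for 3 averages over members, 14 of 70 groups (20%) had a highest or lowest embryo whose gap to the nearest of the others took a larger share of the group's range than Dixon's 95% critical value allows. Chance alone marks about 1 in 20 groups, and 12 of these members were named because a single embryo had been called, so the share is not evidence of its own.

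Among Parg(110)-/+ embryos these were Mrps36 in PargA-2 (9.20, the nearest embryo at 7.60), Mrps22 in PargC-1 (10.965, nearest 9.76), Mrpl58 in PargA-3 (8.46, nearest 7.60) and Mrpl19 in PargA-3 (7.92, nearest 6.97). Among WT embryos the low values were Mrps18c in WT2-2 (5.25, nearest 9.43), Mrpl41 in WT2-1 (6.04, nearest 10.5) and Mrps22 in WT2-2 (7.16, nearest 9.22), together with the small subunit average of WT2-2 (-0.45, nearest 0.05). The high values among WT embryos were Mrpl33 in WT3-1 (9.17), Mrpl30 in WT3-2 (10.3), Mrpl54 in WT1-1 (9.43), Mrps10 in WT2-3 (9.43), Mrpl58 in WT1-1 (8.56) and Mrpl36 in WT3-1 (6.3). For Mrps36 the second probe set, placed by its neighbours on another chromosome than the gene, was at 9.17 in PargA-2. For Mrpl41 the probe set of the gene's own place read 7.57 in WT2-1, against 7.92 to 8.43 in the other WT embryos.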

How the results depend on the processing

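The count of 0 members called between genotypes was the same under every alternative run, and the lowest adjusted p of any of the 12 members whose genotype differences are given was 0.271; none of these 12 changed sign in any alternative. Of the 20 other named members, whose differences are not given, 15 changed sign in at least 1 alternative, with no adjusted p under 0.483. The number of members at an unadjusted p under 0.05, 2 as reported, was 1 with bright probe sets only, 4 without father PargB, 5 without PargC, 4 without WT1, 5 without WT3 and 4 on means per father, and 1 to 6 with each embryo left out in turn. Probe sets called over the whole array numbered 3 without father WT1 and 0 to 1 with each embryo left out, 1 without PargB-1 and 1 without WT1-3. The lowest count of members, 1, was without WT2-3 and the highest, 6, without PargA-2. With the embryo number as a replicate block, 0 probe sets, 0 members and 2 members at an unadjusted p under 0.05 were counted, so the block changed no call.

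The median difference over the members ranged from -0.07 to 0.01 with an embryo left out. It turned positive, at 0.01, without WT3-1 and without the family of father WT1. The share of all probe sets that were higher in Parg(110)-/+ embryos was 67.1% as deposited, 48% with equal medians and 55.8% when quantile normalization was repeated, and that of the members 42.9%, 35.1% and 44.2%. Of the single-embryo calls, the 6 in Parg(110)-/+ embryos held under both scalings, and 1 of the 10 in WT embryos was lost at equal array medians, where its adjusted p was 0.147. With 9 embryos a group and a median SE of 0.25 over the members, against 0.09 over all probe sets, small differences were not detectable.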
